A study of Homo sapiens with 18 samples.

Results

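The genes described here are 34 genes of ribosome biogenesis and the nucleolus, taken by their symbols from a count table of 56609 gene symbols. The rule uses gene names and no measured value, though the list was drawn up with earlier results of these data known. It holds 5 genes that act at the transcription of ribosomal DNA by RNA polymerase I or bind there, 7 proteins of the box C/D and box H/ACA small nucleolar ribonucleoprotein particles (snoRNPs) or their assembly, the abundant nucleolar proteins NCL and NPM1, 8 factors of the small subunit processome and 40S maturation, and 12 factors of large subunit assembly. All 34 were detected in every library, with at least 403 counts (the lowest, for PPAN), and all passed the filter on low counts.

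Ribosomes are built in the nucleolus. RNA polymerase I transcribes a precursor of the ribosomal RNA, snoRNPs guide its methylation and pseudouridylation, and a large set of assembly factors cleaves and folds it together with ribosomal proteins into a small and a large subunit that are matured further on the way to the cytoplasm. The genes for these factors are often expressed together, are known targets of the transcription factor MYC, and rise when resting B cells start to grow after activation, for instance through the DNA sensor TLR9.

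Chronic lymphocytic leukaemia (CLL) is a cancer of mature B cells. RNA was sequenced from 3 EBV-positive CLL cell lines, HG3, MEC2 and PCL12, of which MEC2 carries mutated IGHV genes while HG3 and PCL12 carry unmutated ones. Each line was grown in RPMI medium with fetal bovine serum and either left unstimulated or stimulated for 4 h with 2.5 μg/ml of the CpG oligonucleotide ODN-2006, a TLR9 ligand. There were 3 libraries in each of the 6 groups, 18 in all. Each line is a single established culture that already grows without CpG, and the labels do not say whether the replicates were separate cultures, so that all P values measure only the spread between these libraries. In bulk RNA, fewer cells with a transcript and less of it per cell cannot be told apart.

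Some libraries stood apart. Total counts ran from 20382943 to 67308932 per library. The mitochondrial share of counts was 20.2% for unstimulated HG3 replicate 2 and 19.7% for CpG-treated MEC2 replicate 2, whereas the remaining 16 libraries had 2.82% to 9.28%. Replicates 2 and 3 of PCL12 differed from its replicate 1 in genes abundant in MEC2: for 45 genes selected as having 20 CPM or more in every MEC2 library but at most 10% of the MEC2 level in both libraries of PCL12 replicate 1, the median level in replicates 2 and 3 was 29.0% to 31.3% of that in MEC2. The low level in replicate 1 was fixed by the selection, and whether the transcripts came from MEC2 cells was not tested. The summed level of 7 B-cell markers was 2249 to 4119.6 CPM (counts scaled to library size, with TMM factors), and all 7 were detected in each line. Transcripts of CD5, a marker of CLL cells, stood at 21.9 to 69.6 CPM in HG3 and at 0 to 0.414 CPM in MEC2 and 0.0929 to 1.35 CPM in PCL12. FCER2 (CD23), another such marker, stood at 1451 to 3248 CPM in HG3, 285 to 509 CPM in MEC2 and 303 to 745 CPM in PCL12. Of the markers of other cells, those of monocytes summed to 0.464 to 1.91 CPM, those of NK cells to 0.0357 to 1.71 CPM, and HBB was at 0. Of 4 T-cell genes, CD3D, CD3E and CD3G had medians below 1 CPM in each line, while TRAC stood at 35.7 to 140.1 CPM. Of 2 fibroblast genes, COL1A1 stood at 26.8 to 81.5 CPM in HG3, 9.8 to 37.9 CPM in MEC2 and 5.13 to 14.9 CPM in PCL12, and COL1A2 at medians below 1 CPM.

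The promoters of many of the 34 genes shared a short sequence that the choice of genes did not use. The RefSeq promoter sequences used here (GRCh38.p14, 250 bases before and 50 bases after each start site) held 27 of the 34 genes, and the palindromic E-box CACGTG, which reads the same on both strands and is the textbook site of MYC with its partner MAX, lay in 14 of these 27 (51.9%). Among 27305 genes with a promoter in the same set, 8.77% held it, among 15317 protein-coding genes 10.9%, and among all 35116 promoters 7.26%. For 63 genes of cytosolic ribosomal proteins with a promoter, the number was 4 (6.35%). By role, the motif lay in 3 of 5 genes of the Pol I group, 2 of 5 of the snoRNPs, 0 of 2 for NCL and NPM1, 5 of 7 of the small subunit and 4 of 8 of the large subunit. A match of letters is a description of the window, not of binding. The 30 bases around the motif are shown, 5′ to 3′ on the strand of the gene with the motif in capitals, for the 8 genes with a match among the members that the naming rule selects for values by library, because their levels are described below:
MYBBP1A: ggggccggagcaCACGTGtttcgtgtttcg
FBL: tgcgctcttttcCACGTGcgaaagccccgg
GAR1: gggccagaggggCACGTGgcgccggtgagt
RRP9: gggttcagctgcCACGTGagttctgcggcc
PNO1: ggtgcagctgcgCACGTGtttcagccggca
BYSL: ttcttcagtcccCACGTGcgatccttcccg
UTP20: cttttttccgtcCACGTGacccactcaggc
GNL3: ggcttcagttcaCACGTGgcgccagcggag

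Counting the start site as base 1, the first base of the motif was base 28 in MYBBP1A (chr17:4555340-4555369, minus strand), base 7 in FBL (chr19:39846356-39846385, minus), base 32 in GAR1 (chr4:109815781-109815810, plus), base -5 in RRP9 (chr3:51941892-51941921, minus), base 10 in PNO1 (chr2:68157885-68157914, plus), base 29 in BYSL (chr6:41921515-41921544, plus), base -10 in UTP20 (chr12:101280083-101280112, plus) and base 7 in GNL3 (chr3:52686026-52686055, plus). The other 6 genes with a match were MRTO4, WDR43, LYAR, DDX21, NOP2 and PES1. A further feature of the list lay inside the genes: 8 of the 34 (23.5%) hold snoRNA genes within their span, against 255 of 19987 protein-coding genes (1.28%) of the same annotation. GNL3 holds 6 of them, NOP56 5, NOP58 4, NCL and WDR43 3 each, and DKC1, TSR1 and PPAN 2 each.

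The first comparison asked how the members responded to CpG in each line. After 4 h of CpG, none of the 34 genes passed the test in HG3, MEC2 or PCL12, or in the mean of the 3 lines, and most were estimated slightly above the unstimulated level. In edgeR's quasi-likelihood test on 31872 genes, the adjusted p of every member was 1 in all 4 contrasts. At this threshold 0.00314% of all genes tested were called in HG3, 0.00314% in MEC2, 0% in PCL12 and 0.00941% in the mean of the lines. At an unadjusted P under 0.05, the members counted were 0 in HG3 (3.73% of all genes), 1 in MEC2 (2.46%), 0 in PCL12 (2.09%) and 0 in the mean (4.04%). DESeq2 called 0 members too, with 0, 1, 0 and 0 at an unadjusted P under 0.05, and limma-voom called 0, with 0, 1, 0 and 1. With each replicate pair as a block, edgeR called 43, 106, 15 and 177 genes in place of 1, 1, 0 and 3, and again 0 members, of which 2, 1, 0 and 1 had an unadjusted P under 0.05.

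The median Log2FC of the members was 0.112 in HG3, 0.088 in MEC2, 0.107 in PCL12 and 0.104 in the mean of the lines. Of the 34 genes, 27, 27, 29 and 31 had a positive value (79.4%, 79.4%, 85.3% and 91.2%). For the 9306 genes that averaged 10 CPM or more, the medians were 0.039, -0.007, -0.010 and 0.007, with 58.0%, 48.7%, 47.3% and 52.5% positive. The members' estimates were small: 32 of them in HG3, 32 in MEC2, 33 in PCL12 and all 34 in the mean had a 95% interval within 1 Log2FC of no change. The medians within a line depended on single libraries. That of the mean of the lines ran from 0.05 to 0.17 over the alternatives tried, with 27 to 34 genes positive. Without unstimulated PCL12 replicate 1 the PCL12 median was -0.05 with 8 genes positive, without CpG-treated MEC2 replicate 3 the MEC2 median was -0.00 with 17 positive, and without unstimulated HG3 replicate 2 the HG3 median was 0.05 with 20 positive.

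**Figure D1:**
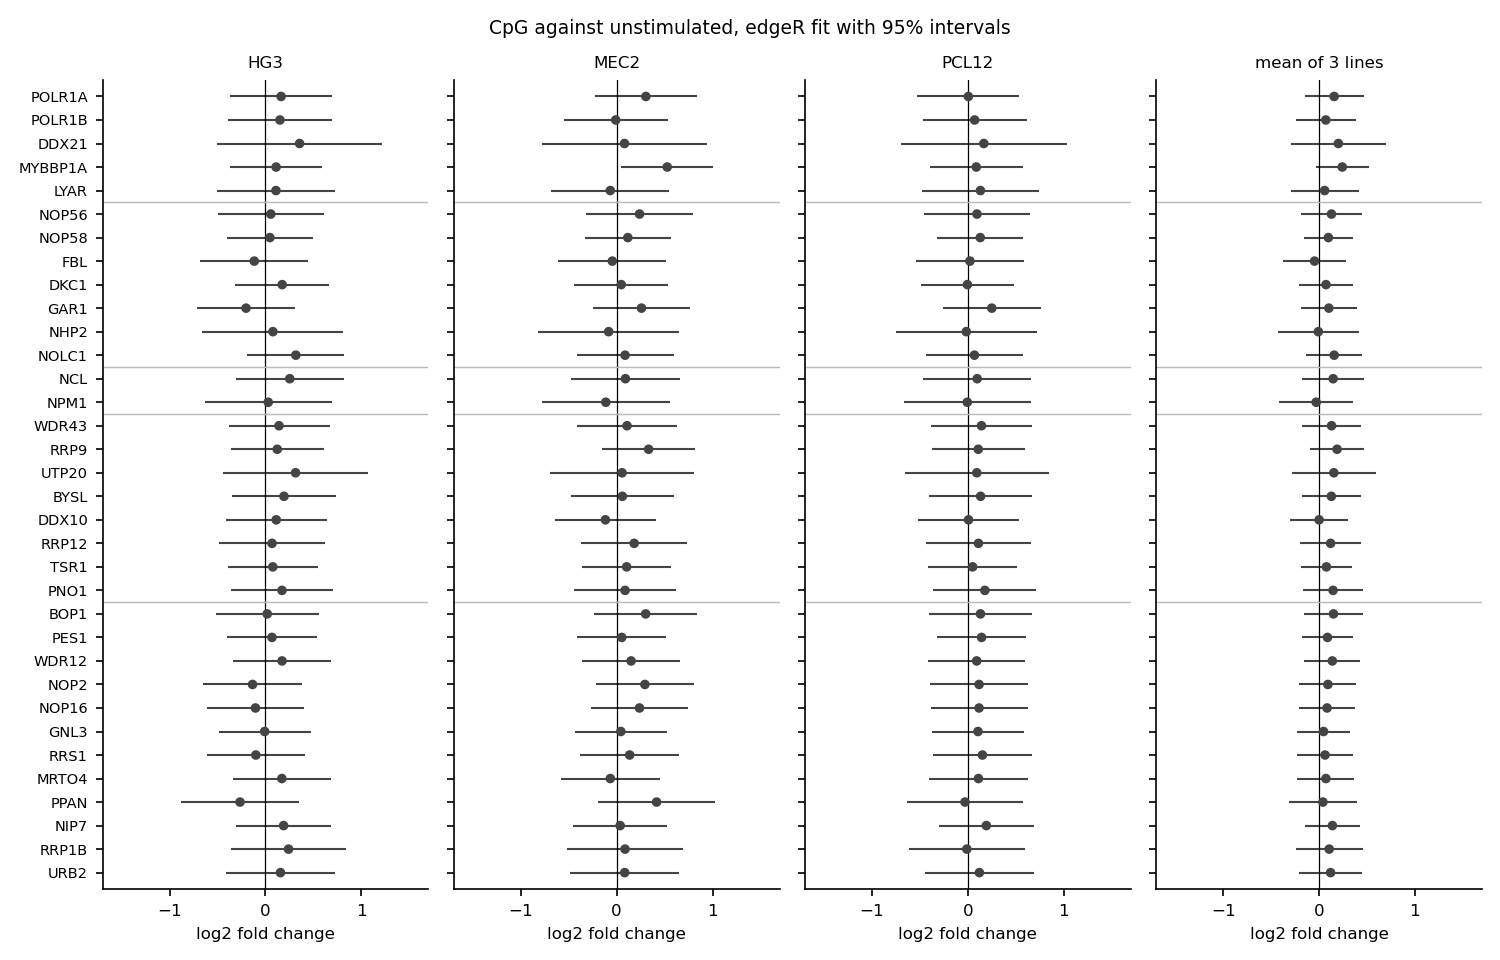
Log2FC of CpG-treated against unstimulated cells for each of the 34 genes (rows, by role) in HG3, MEC2 and PCL12, with 95% intervals from edgeR as bars. The estimates run from -0.27 to 0.36 in HG3, -0.12 to 0.53 in MEC2 and -0.03 to 0.25 in PCL12, and the interval of MYBBP1A in MEC2 does not reach 0.

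The size of the response differed from pair to pair. For pairs of 1 CpG-treated and 1 unstimulated library with the same replicate number, the median log2 ratio of the members (CPM + 1) in HG3 was 0.02, 0.28 and 0.01 for pairs 1, 2 and 3, with 17, 26 and 18 of 34 genes above 0. In MEC2 the medians were 0.14, 0.01 and 0.07, with 29, 17 and 28 genes above 0. In PCL12 they were 0.24, 0.05 and 0.01, with 31, 19 and 18 genes above 0. In HG3 and PCL12 a single pair thus stood well above the others. The mean over pairs was 0.10 ± 0.15 in HG3, 0.07 ± 0.07 in MEC2 and 0.10 ± 0.13 in PCL12 (SD, n = 3), so that the mean did not exceed the SD between pairs by more than rounding in any line. The genes averaging 10 CPM or more had medians of -0.05, 0.23 and -0.02 in the HG3 pairs, -0.04, -0.00 and -0.01 in MEC2, and 0.00, 0.03 and -0.07 in PCL12. In HG3 pair 2, which holds the unstimulated library rich in mitochondrial counts, the median of these genes thus stood nearly as high as that of the members.

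No member was above its unstimulated partner in all 9 pairs. NIP7, named here after its values were seen, was above in 8 pairs, 8 genes were above in 7, 16 in 6, 7 in 5, and DDX10 and FBL, named likewise, in 4. Within HG3, 4 members (NOLC1, PES1, MRTO4 and NIP7) were above in 3 of 3 pairs, against 7.89% of the genes averaging 10 CPM or more. In MEC2, where libraries 1 and 2 correlated more across pairs than within them, the number was 12, against 11.4% of those genes, and in PCL12 4 (NOP2, GNL3, RRS1 and NIP7), against 7.46%. All 3 CpG libraries lay above all 3 unstimulated ones only for MRTO4, a large subunit assembly factor, in HG3 (1.76% of the genes averaging 10 CPM or more did not overlap in either direction), for POLR1A and MYBBP1A in MEC2 (5.2%), and for no member in PCL12 (2.84%).

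**Figure D2:**
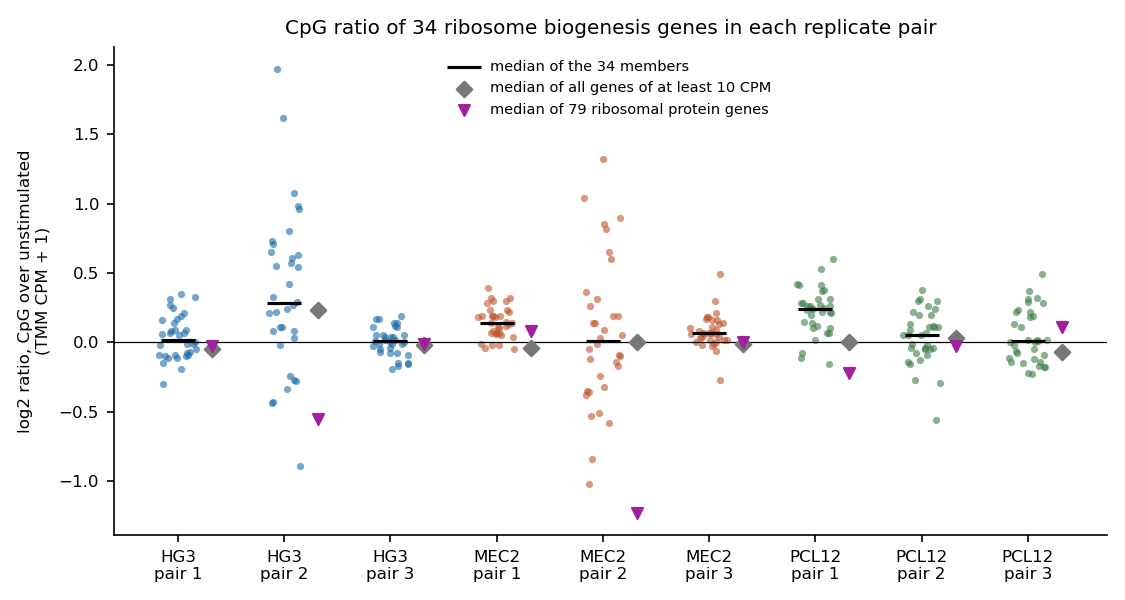
Log2 ratio (CPM + 1) of the CpG-treated to the unstimulated library of each replicate pair, for HG3, MEC2 and PCL12, with 1 point for each of the 34 genes and a line at each median. The medians lie between 0.01 and 0.28, and the points spread most in pair 2 of HG3 (-0.89 to 1.97) and pair 2 of MEC2 (-1.02 to 1.32), the pairs with a library rich in mitochondrial counts.

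Among the genes of RNA polymerase I transcription, MYBBP1A had the smallest P value of all members. MYBBP1A is a nucleolar protein that binds MYB and the Pol I machinery (chromosome 17, 4538897 to 4555386, minus strand, GRCh38). In MEC2 its level was 144, 246 and 139.6 CPM in CpG replicates 1, 2 and 3 and 133, 97.8 and 136 CPM in the unstimulated ones. The 3 CpG libraries lay above the 3 unstimulated ones, mainly through replicate 2, whose CpG library was the one rich in mitochondrial counts. The Log2FC was 0.53 (SE 0.236, 95% interval 0.04 to 1.01, edgeR adjusted p = 1). In HG3 MYBBP1A stood at 297, 270.2 and 264 CPM after CpG and at 232, 255 and 282 CPM without it, and in PCL12 at 265, 232 and 274 CPM and 230.1, 260.2 and 235 CPM. The groups overlapped in both lines, and the Log2FC in the mean of the 3 lines was 0.24 (SE 0.136, edgeR adjusted p = 1). An exon of SPNS2 on the opposite strand overlaps this gene, and the strand setting of the counting was not given in the sources used here. Exons on the opposite strand also overlap TSR1 (SRR), NOP16 (ARL10 and HIGD2A), NIP7 (COG8), GNL3 (GLT8D1), NHP2 (RMND5B), PES1 (TCN2), WDR12 (CARF and NBEAL1), and POLR1B, NOP58, RRP12 and PNO1 (a Y RNA, or genes listed by an identifier alone), so that the same limit holds for their values.

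POLR1A, the largest subunit of RNA polymerase I, stood at 241, 295 and 252 CPM in CpG-treated and 206, 195 and 239 CPM in unstimulated MEC2. These groups did not overlap, and the Log2FC was 0.30 with an adjusted p of 1 (edgeR). In HG3 POLR1A was 259, 187 and 236 CPM after CpG against 232, 114 and 264 CPM, and in PCL12 168, 210.4 and 206 CPM against 159.7, 203 and 219 CPM. The second subunit gene, POLR1B, stood at 105, 88.0 and 121 CPM after CpG and 113, 50.1 and 119 CPM without it in HG3. Its levels were 112, 82.5 and 111 CPM against 98.4, 105 and 104 CPM in MEC2. In PCL12 they were 103, 107 and 95.8 CPM against 77.3, 102 and 112 CPM. The low value of 50.1 CPM for POLR1B and that of 114 CPM for POLR1A came from the same library, unstimulated HG3 replicate 2. For DDX21, an RNA helicase of Pol I transcription and pre-rRNA processing, the same library had 111 CPM against 490.3 and 694 CPM in the other unstimulated HG3 replicates, and its Log2FC after CpG was 0.36, 0.08 and 0.17 in HG3, MEC2 and PCL12. The zinc finger protein LYAR gave 0.11, -0.07 and 0.13. The median over these 5 genes was 0.151, 0.082 and 0.088.

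The snoRNP proteins moved little. FBL (fibrillarin), the methyltransferase of the box C/D particles, stood at 224, 290.1 and 239.5 CPM after CpG and 240, 344 and 233 CPM without it in HG3. In MEC2 its levels were 323, 180.1 and 404 CPM against 283, 260 and 393 CPM. In PCL12 they were 252, 272 and 393 CPM against 281, 299 and 324 CPM. The groups overlapped in each line, and the Log2FC of FBL was -0.12, -0.05 and 0.02. NOP56, a core protein of the same particles, stood at 480.3, 483 and 449 CPM against 451, 456 and 453 CPM in HG3. It was at 431, 549 and 698 CPM against 397, 349 and 676 CPM in MEC2, where each CpG library exceeded its partner. In PCL12 it was at 378, 387 and 537 CPM against 290.5, 399.9 and 529 CPM. NOP58, its partner in the core, had a Log2FC of 0.05, 0.12 and 0.13 in HG3, MEC2 and PCL12.

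DKC1 (dyskerin), the pseudouridine synthase of the box H/ACA particles, was at 253, 278 and 269 CPM after CpG and 255, 187 and 267 CPM without it in HG3. Its levels in MEC2 were 296, 231 and 328 CPM against 268, 247 and 313 CPM, and those in PCL12 203, 271 and 289.5 CPM against 189, 289 and 289 CPM. Unstimulated HG3 replicate 2 was again the low library, and the groups overlapped in each line. GAR1, another H/ACA core protein, lay on opposite sides of 0 in the pairs of HG3 and MEC2. In HG3 it was at 41.7, 51.5 and 49.5 CPM after CpG against 51.7, 62.7 and 49.9 CPM, lower in each pair. In MEC2 it was at 47.4, 35.2 and 60.9 CPM against 44.7, 31.8 and 43.2 CPM, higher in each pair. In PCL12, where its P value was the smallest of the members, GAR1 was at 49.9, 52.1 and 51.4 CPM against 32.5, 43.2 and 53.1 CPM, with a Log2FC of 0.25 (SE 0.247, edgeR adjusted p = 1). The difference of its CpG effect between HG3 and MEC2 was -0.46 (SE 0.35, edgeR adjusted p = 1). NHP2, the remaining H/ACA protein, had a Log2FC of 0.08, -0.08 and -0.02.

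NOLC1, a chaperone of snoRNPs, had the smallest P value in HG3, where its levels were 499, 565 and 534 CPM after CpG and 483, 267 and 533 CPM without it, a Log2FC of 0.32 (SE 0.246, edgeR adjusted p = 1). The low unstimulated value was that of replicate 2, and the groups overlapped. NOLC1 was at 353, 315 and 393 CPM after CpG against 320.1, 285 and 393 CPM in MEC2, and at 390.1, 413 and 439 CPM against 322, 418 and 444 CPM in PCL12. The next was NCL (nucleolin), an abundant RNA-binding protein of the nucleolus, with 2052, 2214 and 2014 CPM against 2184, 1135 and 1950 CPM and a Log2FC of 0.25 (SE 0.275, edgeR adjusted p = 1). The value of 1135 CPM again belonged to replicate 2. NCL stood at 1929, 1663 and 2652 CPM against 1839, 1676 and 2346 CPM in MEC2, and at 1663, 1874 and 2511 CPM against 1423, 1931 and 2299 CPM in PCL12. NPM1 (nucleophosmin), a nucleolar chaperone with processed pseudogenes that can share its reads, was at 1428, 1798 and 1403 CPM after CpG and 1625, 1559 and 1353 CPM without it in HG3. In MEC2 it was at 1161, 622 and 2009 CPM against 1166, 1110.1 and 1825 CPM, and in PCL12 at 1126, 1277 and 1685 CPM against 1019, 1184 and 1900.3 CPM. The lowest NPM1 level of all libraries, 622 CPM, was that of CpG-treated MEC2 replicate 2, and its Log2FC was 0.03, -0.11 and -0.01 in the 3 lines.

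Of the small subunit factors, RRP9, the U3 snoRNP protein, had one of the 3 smallest P values in MEC2 and in the mean of the lines. It stood at 86.3, 112 and 74.0 CPM after CpG and 83.7, 59.7 and 72.9 CPM without it in MEC2, with each CpG library above its partner, and the Log2FC was 0.33 (SE 0.236, edgeR adjusted p = 1). In HG3 RRP9 was at 88.2, 76.2 and 80.7 CPM against 70.0, 77.5 and 77.7 CPM, and in PCL12 at 60.1, 67.4 and 84.0 CPM against 50.3, 81.3 and 64.7 CPM. The mean over the lines was 0.19 (SE 0.136, edgeR adjusted p = 1). PNO1, a factor of late 40S maturation, was at 57.1, 74.4 and 62.0 CPM against 42.4, 63.0 and 65.6 CPM in PCL12, a Log2FC of 0.18 (SE 0.261, edgeR adjusted p = 1). The groups overlapped through unstimulated replicates 2 and 3. PNO1 was at 63.5, 59.2 and 81.2 CPM against 65.8, 40.1 and 75 CPM in HG3, and at 72.5, 47.1 and 80.4 CPM against 62.1, 60.8 and 65.3 CPM in MEC2, again with overlap. UTP20, a large scaffold of the processome, stood at 115, 102 and 107 CPM against 109.6, 32.6 and 119 CPM in HG3, with the value of 32.6 CPM again in replicate 2. After CpG it stood at 131, 109 and 189.6 CPM in MEC2 and 92.4, 156 and 146 CPM in PCL12, and overlapped with the unstimulated levels given further on. All 8 small subunit genes had a positive Log2FC in HG3 and PCL12 and 7 of 8 in MEC2, where that of the helicase DDX10 was -0.12. The processome proteins WDR43 and RRP12 gave 0.14, 0.11 and 0.14 and 0.07, 0.18 and 0.11 in the order HG3, MEC2 and PCL12, the 40S factors BYSL and TSR1 0.19, 0.06 and 0.13 and 0.08, 0.10 and 0.05.

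For the large subunit, PPAN, an assembly factor of the 60S particle, had the third smallest P value in both HG3 and MEC2, with opposite signs. In HG3 it stood at 17.0, 12.2 and 13.6 CPM after CpG and 14.2, 23.4 and 14 CPM without it, a Log2FC of -0.27 (SE 0.298, edgeR adjusted p = 1). In MEC2 it stood at 33.4, 55.1 and 23.5 CPM against 29.2, 26.3 and 28.4 CPM, a Log2FC of 0.42 (SE 0.296, edgeR adjusted p = 1). The high libraries in both lines were those rich in mitochondrial counts, unstimulated HG3 replicate 2 and CpG-treated MEC2 replicate 2, and the groups overlapped. The difference of the CpG effect between HG3 and MEC2 was -0.68 (SE 0.42, edgeR adjusted p = 1). PPAN overlaps the readthrough gene PPAN-P2RY11, which had 0 to 13 counts, and P2RY11, which had 531 to 5778 counts per library, so that its counts depend on how shared reads were assigned. NIP7, a factor of 60S maturation, had a Log2FC of 0.19 in PCL12 (SE 0.24, edgeR adjusted p = 1), from 79.9, 104 and 98.3 CPM after CpG against 66.2, 83.5 and 96.8 CPM. It was at 84.9, 97.3 and 113 CPM against 81.2, 77.4 and 100.1 CPM in HG3, and at 99.2, 64.2 and 114 CPM against 86.6, 83.6 and 100.1 CPM in MEC2. The groups of NIP7 overlapped in each line, and the lowest CpG value was that of MEC2 replicate 2.

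MRTO4, the member whose groups did not overlap in HG3, stood at 143, 163 and 141 CPM after CpG and at 134, 138 and 126 CPM without it, and its Log2FC was 0.17 with an adjusted p of 1 (edgeR). In MEC2 and PCL12 its Log2FC was -0.07 and 0.11. The 3 proteins of the PeBoW complex, PES1, BOP1 and WDR12, which act in the maturation of the large subunit RNA, had Log2FC values of 0.07, 0.02 and 0.17 in HG3. Those in MEC2 were 0.05, 0.30 and 0.15, and those in PCL12 0.14, 0.13 and 0.09. The remaining large subunit factors, NOP2 (an rRNA methyltransferase), NOP16, GNL3 (nucleostemin), RRS1, RRP1B and URB2, ranged from -0.14 to 0.24 in HG3. The MEC2 range of these 6 was 0.04 to 0.29 and the PCL12 range -0.01 to 0.15. The other members are summarised by the range of their levels over all 18 libraries. DDX21 ran from 111 to 766 CPM, WDR43 from 116 to 253 CPM and URB2 from 33.1 to 89.8 CPM, each lowest in unstimulated HG3 replicate 2. NHP2 (33.0 to 145 CPM), DDX10 (43.2 to 85.9 CPM), PES1 (153 to 262 CPM) and MRTO4 (88.6 to 187 CPM) were lowest in CpG-treated MEC2 replicate 2. NOP58 (179.7 to 295 CPM), NOP2 (159.5 to 399.6 CPM), RRS1 (56.1 to 113 CPM) and LYAR (53.3 to 129.9 CPM) were lowest in unstimulated PCL12 replicate 1, and BOP1 (103 to 215 CPM) in unstimulated MEC2 replicate 2. The lowest level thus lay in 1 of 3 libraries for 11 of these 12 genes. In the mean of the lines all 12 large subunit genes had a positive Log2FC, none past the test.

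**Figure D3:**
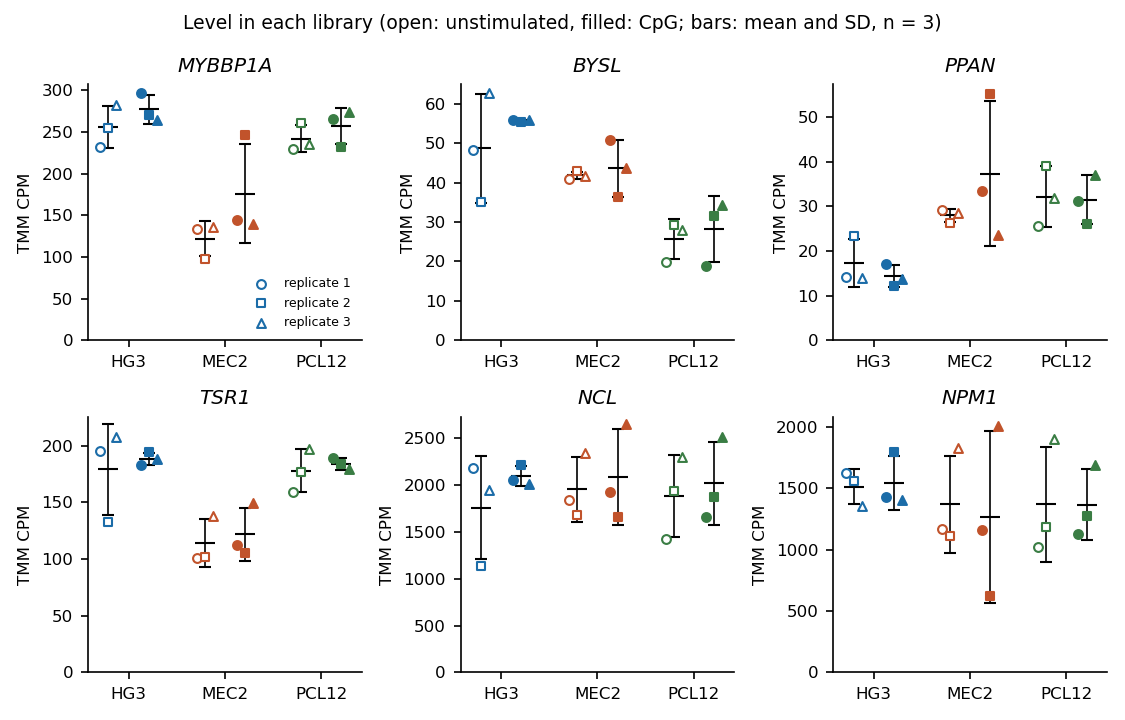
TMM-scaled CPM of MYBBP1A, BYSL, PPAN, TSR1, NCL and NPM1 in each library, with open symbols for unstimulated and filled symbols for CpG-treated cells, circles, squares and triangles for replicates 1, 2 and 3, and bars for the mean ± SD (n = 3). The unstimulated levels of MYBBP1A in MEC2 (97.8 to 136 CPM) lie below all those of HG3 and PCL12 (230.1 CPM and above), and the 2 libraries rich in mitochondrial counts stand apart in NCL (1135 CPM, HG3) and NPM1 (622 CPM, MEC2).

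The CpG effects were also compared between the lines. No member passed the test of a difference between HG3 and MEC2, HG3 and PCL12, or MEC2 and PCL12 in edgeR, and 0 of 34 had an unadjusted P under 0.05 in any of the 3 tests. Of all genes tested, 0%, 0.00314% and 0% were called there at an adjusted p under 0.05, and 4.1%, 4.16% and 3.23% had an unadjusted P under 0.05. Besides PPAN and GAR1, the smallest P value was that of MYBBP1A between MEC2 and PCL12, with a difference of 0.44 (SE 0.333, edgeR adjusted p = 1). The difference of HG3 from MEC2 had a 95% interval within 1 Log2FC of 0 for 22 of the 34 genes, and for the other 12 the interval reached a difference of this size. DESeq2, limma-voom and the fits with the pairs as a block called 0 members in these 3 tests, and the highest number with an unadjusted P under 0.05 in any alternative was 1.

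Other genes of the pathway outside the 34 were not called after CpG either. From further lists, 0 of 14 genes of the Pol I machinery, 0 of 9 of snoRNP assembly, 0 of 39 of the small subunit, 0 of 40 of the large subunit, 0 of 14 nucleases and exosome subunits and 0 of 79 cytosolic ribosomal protein genes were called in any line, in the mean or in a difference between lines (edgeR). Within a line, 2 genes of these lists had an unadjusted P under 0.05, namely PWP2, a U3 processome protein, in HG3 (Log2FC -1.37, SE 0.518, edgeR adjusted p = 1) and POLR1E, a Pol I subunit, in MEC2 (Log2FC 0.54, SE 0.219, edgeR adjusted p = 1). The ribosomal protein genes, whose products the members assemble, had median Log2FC values of -0.232, -0.261, -0.064 and -0.186 in HG3, MEC2, PCL12 and the mean, with 8, 2, 8 and 4 of 79 positive. By pairs their median in HG3 was -0.03, -0.55 and -0.01. The MEC2 pairs had 0.08, -1.23 and -0.00 and the PCL12 pairs -0.22, -0.03 and 0.11. The lowest values were those of the pairs with a library rich in mitochondrial counts. MYC stood at 461, 366 and 594 CPM after CpG and 414, 137 and 589.6 CPM without it in HG3, and its Log2FC was 0.32, 0.16 and 0.08 in HG3, MEC2 and PCL12 with an adjusted p of 1 (edgeR). The members with the E-box had a median Log2FC of 0.12, 0.07 and 0.12 in the 3 lines and those without it 0.11, 0.09 and 0.05 (14 and 13 genes).

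The 2 libraries rich in mitochondrial counts were then followed gene by gene. Set against the mean log2 level of the other libraries of its group, unstimulated HG3 replicate 2 had a median deviation of -0.23 over the members, from -2.38 for DDX21 to 0.80 for NOP16. Genes with more exon sequence tended to be the low ones, with exceptions such as NPM1 (0.07) and the short but low PNO1 (-0.79) and BYSL (-0.63): the correlation of the deviation with the log2 summed exon length was -0.58 over the 34 members and -0.39 over 8889 genes (across genes, which are not independent). The labels name a kit that reads the 3′ ends of transcripts, and the methods name no kit for the libraries. The meaning of exon length for the counts depends on whether 3′ ends were read. UTP20 deviated by -1.78, URB2 by -1.20, POLR1B by -1.19, POLR1A by -1.11 and RRP1B by -1.09, whereas NOP2 (0.62), PPAN (0.69), FBL (0.54), BOP1 (0.51) and RRS1 (0.50) were high. CpG-treated MEC2 replicate 2 had a median deviation of -0.33, from -1.74 for NHP2 to 0.95 for PPAN, and a correlation with exon length of 0.14 over the members and 0.28 over the genes. NHP2 stood there at 33.0 CPM against 87.8 and 145 CPM in the other CpG replicates, and NPM1 and FBL deviated by -1.30 and -1.0. The ribosomal protein genes had a median deviation of 0.66 in the HG3 library and -1.29 in the MEC2 library. The part of RNA quality in these deviations was not tested.

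With both libraries left out together, an alternative chosen after seeing the data, the median Log2FC of the members was 0.03 in HG3 (20 of 34 positive), 0.21 in MEC2 (34 positive), 0.11 in PCL12 (29 positive) and 0.11 in the mean (34 positive). No member was called, and 0 had an unadjusted P under 0.05 in edgeR. For MEC2, the number of members with an unadjusted P under 0.05 was also 0 when CpG-treated replicate 2 alone, or unstimulated replicate 2 alone, was left out. The median coefficient of variation of the members was 8.64% in CpG-treated HG3 and 22.6% in unstimulated HG3, where the highest was 68.5% for DDX21, 21.9% in CpG-treated and 16.6% in unstimulated MEC2, and 17.7% in CpG-treated and 21.8% in unstimulated PCL12. Unstimulated PCL12, with no library rich in mitochondrial counts, was thus near the groups that have one.

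**Figure D4:**
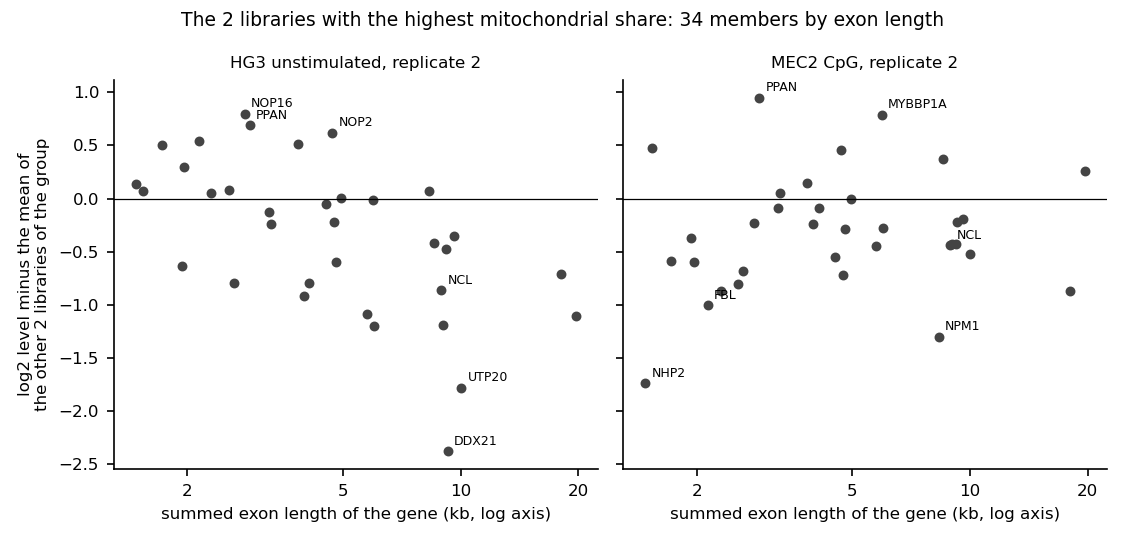
Deviation of each of the 34 genes from the mean of the other libraries of its group (log2) against its summed exon length (log axis), for unstimulated HG3 replicate 2 and CpG-treated MEC2 replicate 2. In the HG3 library the points fall with length (correlation -0.58, lowest DDX21 at -2.38), and in the MEC2 library they do not (0.14, lowest NHP2 at -1.74).

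The PCL12 libraries differed among replicates as well. In replicate 1, the one by which the MEC2 genes above were selected as low, the members stood lower than in replicate 2 by a median log2 difference of -0.25 after CpG (30 of 34 genes lower) and -0.45 without it (33 lower). Against replicate 3 the differences were -0.41 (31 lower) and -0.53 (34 lower). The genes averaging 10 CPM or more differed by -0.02, -0.00, -0.03 and -0.11 in the same order. PCL12 pair 1 had the highest median CpG ratio of the 3 pairs in this line (0.24), and the part of the MEC2 genes' higher level in the other replicates was not tested.

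The second comparison asked how the unstimulated levels differed between the lines. The mean level in the highest line exceeded that in the lowest by 1.08 times (MRTO4) to 2.09 times (MYBBP1A), with a median of 1.25 times, and by at least 1.5 times in 7 genes. The highest level was in MEC2 for 18 members, in HG3 for 13 and in PCL12 for 3. The lowest was in PCL12 for 14, in HG3 for 13 and in MEC2 for 7. Only MYBBP1A and BYSL differed past the test between any pair of lines in edgeR.

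One member passed the test between MEC2 and HG3 (0 higher, 1 lower in MEC2), against 9.78% of all genes tested. Between PCL12 and HG3 it was also 1 (0 higher, 1 lower in PCL12, 9.44% of all genes), and between MEC2 and PCL12 1 (0 higher, 1 lower in MEC2, 2.05%). The median log2 differences were 0.065 for MEC2 against HG3, -0.083 for PCL12 against HG3 and 0.110 for MEC2 against PCL12, with 21, 13 and 24 of 34 genes positive. Those of the genes averaging 10 CPM or more were 0.025, 0.012 and 0.030. All 3 medians rested on single libraries. That of MEC2 against HG3 was -0.04 with 16 of 34 genes positive without unstimulated HG3 replicate 2, -0.05 with 14 positive without unstimulated MEC2 replicate 3, and -0.06 with 15 positive without the 2 libraries rich in mitochondrial counts. With PCL12 represented by replicate pair 1 alone, that of PCL12 against HG3 was -0.43 with 4 of 34 genes positive, and that of MEC2 against PCL12 was 0.43 with 31 positive. Without unstimulated PCL12 replicate 1 they were 0.05 with 20 positive and -0.05 with 11 positive, and without unstimulated HG3 replicate 3 the first was 0.06 with 19 positive. The groups did not overlap for 6 members between MEC2 and HG3 (LYAR, PPAN and RRP1B higher and MYBBP1A, GAR1 and NOP16 lower in MEC2), against 35.7% of the genes averaging 10 CPM or more. They did not overlap for 3 between PCL12 and HG3 (NHP2, BYSL and PPAN, against 29.3%) and for 4 between MEC2 and PCL12 (MYBBP1A, BYSL, TSR1 and URB2, against 27.5%). The 95% interval lay within a 2-fold difference in either direction for 27, 27 and 29 of 34 genes in the same order of contrasts.

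**Figure D5:**
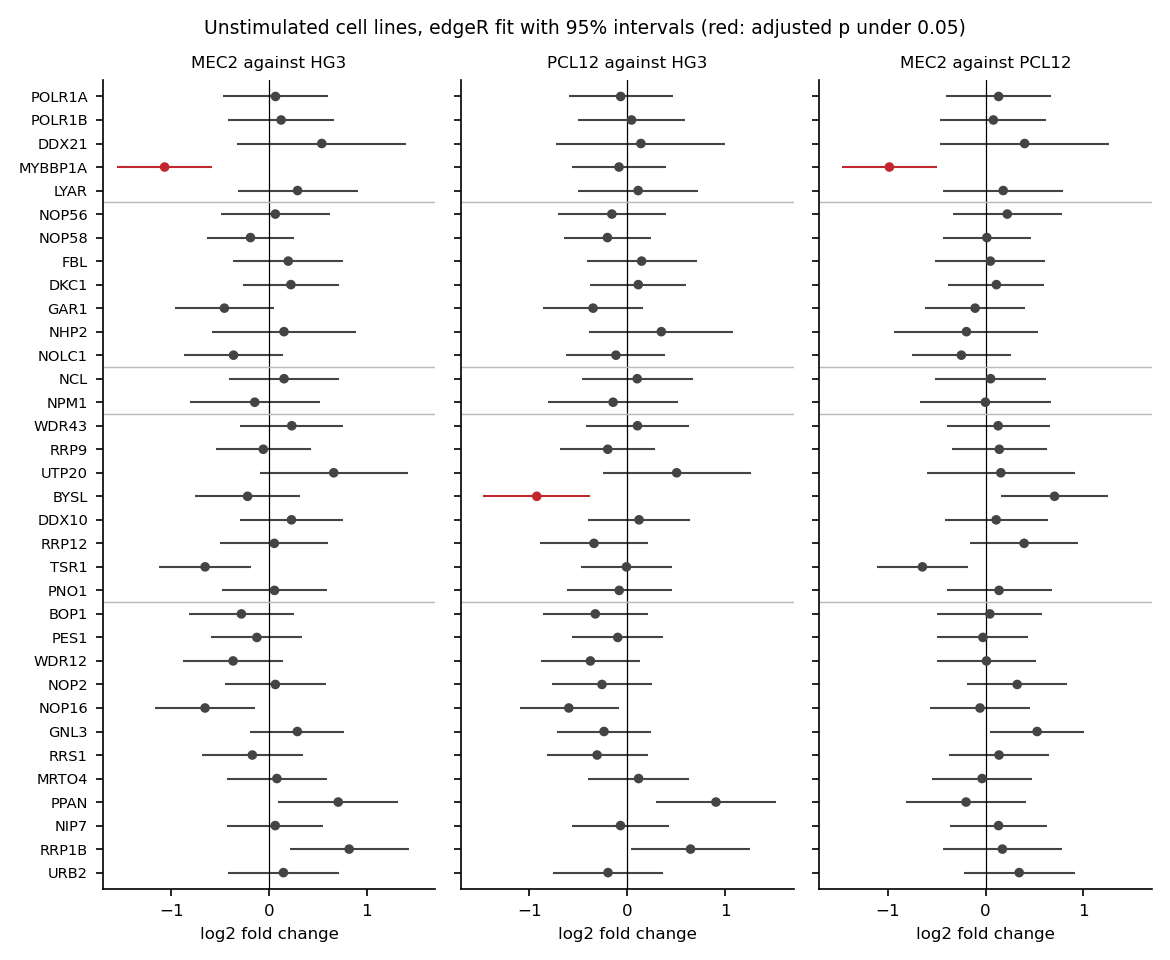
Log2 difference of the unstimulated levels between lines for each of the 34 genes, with 95% intervals from edgeR and an adjusted p under 0.05 in red. MYBBP1A is red for MEC2 against HG3 (-1.07) and against PCL12 (-0.98), and BYSL for PCL12 against HG3 (-0.92).

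MYBBP1A was lower in MEC2 than in both other lines. Its unstimulated levels, given above by library, averaged 122 ± 21.4 CPM in MEC2, 256 ± 24.7 CPM in HG3 and 242 ± 16.1 CPM in PCL12 (SD, n = 3). Its level in MEC2 was 0.478 times that in HG3 (log2 difference -1.07, SE 0.238, 95% interval -1.55 to -0.58, edgeR adjusted p = 0.00315) and 0.506 times that in PCL12 (-0.98, SE 0.237, edgeR adjusted p = 0.0228). HG3 and PCL12 overlapped. The difference from HG3 kept an adjusted p between 2.06e-05 (DESeq2) and 0.0346 (edgeR without unstimulated MEC2 replicate 2) in the alternatives tried. That from PCL12 did not: the adjusted p was 0.0715 without MEC2 replicate 1, 0.196 without MEC2 replicate 2, 0.0597 without PCL12 replicate 1 and 0.0863 without PCL12 replicate 2 (edgeR). With PCL12 represented by replicate pair 1 alone, the log2 difference of MEC2 from PCL12 was -0.94.

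BYSL (bystin), a factor of 40S maturation on chromosome 6 (41921499 to 41933046, plus strand, GRCh38), was lower in PCL12 than in HG3. Its levels were 19.8, 29.3 and 27.9 CPM in unstimulated PCL12, 48.2, 35.1 and 62.7 CPM in HG3 and 41.0, 43.0 and 41.6 CPM in MEC2. PCL12 overlapped with neither line, and the level was 0.527 times that in HG3 (log2 difference -0.92, SE 0.265, edgeR adjusted p = 0.0239). The difference of MEC2 from PCL12 was 0.71 (edgeR adjusted p = 0.245). The call against HG3 was lost without HG3 replicate 3 (edgeR adjusted p = 0.142), PCL12 replicate 1 (0.128) or PCL12 replicate 3 (0.0515). With PCL12 represented by replicate pair 1 alone, the log2 difference from HG3 was -1.28. After CpG BYSL stood at 18.7, 31.6 and 34.2 CPM in PCL12, 55.8, 55.4 and 55.8 CPM in HG3 and 50.8, 36.3 and 43.7 CPM in MEC2. PCL12 again did not overlap with the other lines, but the share of all genes that separate between CpG-treated lines was not counted. Between unstimulated lines, 27.5% to 35.7% of the genes averaging 10 CPM or more did not overlap.

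PPAN, TSR1 and RRP1B lay close to the threshold. The unstimulated levels of PPAN were given above for HG3 and MEC2, and in PCL12 they were 25.5, 39.1 and 31.8 CPM, with 31.1, 26.1 and 37.1 CPM after CpG. The difference of PCL12 from HG3 was 0.91 (edgeR adjusted p = 0.0556) and that of MEC2 from HG3 0.71 (0.157). Without unstimulated HG3 replicate 2, in which PPAN was high, the first was past the threshold (edgeR adjusted p = 0.0103) and so was the second (0.036).

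TSR1, a GTPase-like factor of 40S maturation, stood at 101, 102 and 138 CPM in MEC2, 195, 133 and 208 CPM in HG3 and 159, 177 and 197 CPM in PCL12. MEC2 lay below all PCL12 libraries and overlapped with HG3 only through HG3 replicate 2, with differences of -0.65 from HG3 (edgeR adjusted p = 0.0739) and -0.64 from PCL12 (0.204), while PCL12 and HG3 differed by -0.01. After CpG, TSR1 stood at 112, 105 and 149 CPM in MEC2, 183, 194 and 188 CPM in HG3 and 189, 184 and 179 CPM in PCL12, with MEC2 below both other lines. RRP1B, a nucleolar protein of the large subunit pathway, was at 143, 66.9 and 145 CPM in HG3, 184, 173 and 269.7 CPM in MEC2 and 124, 189 and 243 CPM in PCL12. Its HG3 libraries lay below those of MEC2, and the differences from HG3 were 0.82 for MEC2 (edgeR adjusted p = 0.0848) and 0.65 for PCL12 (0.197). After CpG, RRP1B was at 149, 133 and 138 CPM in HG3 and 208, 177 and 281 CPM in MEC2, again without overlap. In PCL12 it was at 143, 184 and 225 CPM. For the separation of TSR1 and RRP1B after CpG, the share over all genes was not counted. Between unstimulated lines, 27.5% to 35.7% of the genes averaging 10 CPM or more did not overlap.

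NOP16, a 60S assembly factor, stood highest in HG3, at 105, 199 and 122 CPM, against 89.6, 79.2 and 102 CPM in MEC2 and 73.5, 103 and 106 CPM in PCL12. MEC2 did not overlap with HG3, and the differences were -0.65 (edgeR adjusted p = 0.104) and, for PCL12, -0.60 (0.148). After CpG, NOP16 was at 119, 146 and 132 CPM in HG3, 118, 95.2 and 107 CPM in MEC2 and 86.6, 99.0 and 120.2 CPM in PCL12. UTP20 stood at 122, 113 and 177 CPM in MEC2 and 71.2, 136 and 163 CPM in PCL12, and MEC2 differed from HG3 by 0.66 (edgeR adjusted p = 0.291). GNL3, a nucleolar GTPase, stood at 314, 272 and 282 CPM in HG3, 343, 306 and 412 CPM in MEC2 and 175, 256 and 306 CPM in PCL12, with a difference of 0.53 of MEC2 from PCL12 (edgeR adjusted p = 0.389). The levels of GNL3 after CpG were 295, 278 and 290.2 CPM in HG3, 338, 349 and 407 CPM in MEC2 and 216, 266 and 311 CPM in PCL12, so that MEC2 lay above the other lines. At the other end were pairs of lines with nearly equal levels. RRP12 and PNO1 differed by 0.05 and 0.06 between MEC2 and HG3, POLR1B by 0.04 between PCL12 and HG3, and NPM1 and WDR12 by -0.00 and 0.01 between MEC2 and PCL12. For RRP12 the unstimulated levels were 125, 117 and 196 CPM in HG3 and 166, 173 and 115 CPM in MEC2, and for WDR12 61.4, 51.3 and 84.2 CPM in MEC2 and 47.9, 65.0 and 82.7 CPM in PCL12, so that small differences of the means stood beside a wide spread. RRP12 was at 96.3, 149 and 101 CPM in unstimulated PCL12, and after CpG at 151, 136 and 172 CPM in HG3, 208, 197 and 111 CPM in MEC2 and 112, 135 and 126 CPM in PCL12. WDR12 was at 95, 71.2 and 87.7 CPM in unstimulated HG3, and after CpG at 94.0, 95.4 and 96.8 CPM in HG3, 64.0, 66.1 and 88.6 CPM in MEC2 and 56.8, 76.0 and 75.8 CPM in PCL12. After CpG, WDR12 in HG3 lay above both other lines. For this separation and that of GNL3 after CpG, the share over all genes was not counted.

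Among the other genes of the pathway, 0 were called between MEC2 and PCL12 by edgeR in these lists, and those called against HG3 stand beside a share of 9.78% (MEC2) and 9.44% (PCL12) of all genes. In MEC2 against HG3, the Pol I list had 1 gene higher and 1 lower (TAF1B, a subunit of the Pol I factor SL1, 1.25, edgeR adjusted p = 0.0118, and POLR1C, a subunit of Pol I and Pol III, -0.86, 0.0111). NUFIP1 of snoRNP assembly was higher (1.44, 0.00213), as were EMG1, an rRNA methyltransferase of the small subunit (0.84, 0.0456), and EXOSC2 of the exosome (0.96, 0.0168), and the small subunit helicase DDX47 (-0.996, 0.00332) and the large subunit factor PELP1 (-1.53, 4.92e-05) were lower. In PCL12 against HG3, POLR1C (-1.56, 2.31e-05) and PELP1 (-0.78, 0.0307) were lower, NUFIP1 was higher (1.09, 0.0215), and 3 of 39 small subunit genes were lower, with RIOK1 at -1.11 (0.0137) and LTV1 at -0.86 (0.0343). Among the 79 ribosomal protein genes, RPS25 was lower in MEC2 than in HG3 (-0.86, 0.0401), and 3 were lower in PCL12 than in HG3 (RPS18 at -1.61, 0.00273, among them), though ribosomal protein genes have pseudogenes that can share their reads, and the medians of the list were -0.414 and -0.466. These genes stood high in unstimulated HG3 replicate 2, the library with a median deviation of 0.66 for them. MYC did not pass the test between any pair of lines, with differences of -0.39 for MEC2 against HG3 (edgeR adjusted p = 0.567), -0.45 for PCL12 against HG3 (0.504) and 0.05 for MEC2 against PCL12 (1).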

How the data were processed

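The authors deposited raw read counts per gene symbol for 18 libraries, and every column was mapped by the labels. The submitters' processing notes name FastQC, MultiQC, Trimmomatic, STAR, featureCounts and hg38, and the methods a stranded reverse protocol. The labels name a Promega kit and Lexogen QuantSeq. The methods name a Qiagen kit for RNA extraction and no kit for the libraries.

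The 34 members and all lists were chosen with earlier results of these data known. Genes whose counts over all libraries summed to 10 or more (31872 of 42248 with at least 1 count) were scaled with TMM factors and tested in 1 edgeR 4.0.16 quasi-likelihood fit of the 6 groups (R 4.3.3, 12 residual degrees of freedom, two-sided, Benjamini-Hochberg over all genes, checked on simulated counts). Values in every library were given for members with the smallest P values after CpG, for the largest and smallest differences between lines, and for NPM1, NCL, FBL, DKC1, POLR1A and NOP56. Alternatives were DESeq2 1.42.0, limma-voom (limma 3.58.1), a replicate block, RLE factors or library totals, other filters and pseudocounts, each library left out, and PCL12 as replicate pair 1. Gene positions and exon lengths came from GENCODE release 44.

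The series description gives each replicate 1 stimulated and 1 unstimulated sample, so the numbers pair libraries within a line. Deviations from group means correlated for pairs 1, 2 and 3 by 0.393, 0.361 and 0.661 for HG3, by 0.216, 0.0387 and 0.68 for MEC2, and by 0.639, 0.562 and 0.559 for PCL12. In MEC2, CpG replicate 1 correlated more with unstimulated replicate 2 (0.492), and CpG replicate 2 with unstimulated replicate 1 (0.429), so that results by pair are less certain there. No replicates agreed within sampling noise. For the ribosomal protein genes in MEC2 against HG3, 1 result is not reported here.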

Additional observations from a re-analysis of the deposited data

Results flagged for a closer look

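GAR1, a core protein of the box H/ACA snoRNPs, was below its unstimulated partner in all 3 pairs of HG3 (log2 ratios of -0.30, -0.28 and -0.01, mean -0.20) and above it in all 3 pairs of MEC2 (0.08, 0.14 and 0.49, mean 0.24). It drew notice because every pair of one line lay on the other side of 0 from every pair of the other. The share of all genes that meet this rule was not counted, and the pairing of libraries is less certain in MEC2. The difference of the CpG effect itself was tested and did not pass (-0.46, SE 0.35, edgeR adjusted p = 1).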

How the results depend on the processing

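After CpG, 0 members were called in each line, the mean and the 3 differences between lines under every alternative. Leaving out replicates in turn gave 1 to 3 members called between unstimulated MEC2 and HG3, 0 to 2 between PCL12 and HG3 and 0 to 1 between MEC2 and PCL12, against 1 in each. Between MEC2 and HG3, DESeq2 called 4 members (with TSR1, NOP16 and RRP1B), limma-voom, filterByExpr and no filter 2 each, and the fit without the mitochondria-rich libraries 4 (with NOLC1, TSR1 and PPAN). Between PCL12 and HG3, each of these 5 called 2 (with PPAN). With PCL12 as replicate pair 1, a single PCL12 library per treatment, the log2 difference of BYSL was -1.28. Between MEC2 and PCL12, DESeq2 and the fit without the mitochondria-rich libraries called 2 (with TSR1). With PCL12 as pair 1 the log2 difference of MYBBP1A was -0.94. Library totals set the median of MEC2 pair 2 at -0.15 and RLE factors at -0.08, in place of 0.01. For HG3 pair 2 totals gave 0.39 and RLE factors 0.17, in place of 0.28. The cause was not tested.

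With the replicate block, edgeR called 2 and limma-voom 3 members between MEC2 and HG3, and both called 2 between PCL12 and HG3, where numbers are shared across lines but no pairing is stated. The block changed no other count of members called. Over all alternatives, the members' median Log2FC after CpG ran from 0.03 to 0.19 in HG3, -0.00 to 0.21 in MEC2 and -0.05 to 0.25 in PCL12. In the mean of the lines it ran from 0.05 to 0.17. Single genes were followed in the contrasts by which they were named (not every member in every contrast). Of these values, 556 kept their side of the threshold, 17 passed it and 9 no longer did. No called gene turned direction, and direction was not compared for values called in neither fit. With 3 libraries a group, the median SE was 0.258 for the members after CpG in a line.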
